A study of Mus musculus with 6 samples.

Results

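The stathmin family was followed through every probe set that the array annotation assigns to exactly 1 of Stmn1, Stmn2, Stmn3 and Stmn4. Such a set holds several short probes to a transcript. The rule gave 7 probe sets of the 45101 on the array, with 2 each for Stmn1, Stmn2 and Stmn3 and 1 for Stmn4. They were measured on 6 one-colour Affymetrix mouse arrays. In 3 of the samples a lentivirus carried an shRNA against REST (REST shRNA), and in the other 3 it carried a control (CTL) shRNA. All 6 came from NSP cells, an abbreviation commonly used for neural stem and progenitor cells. These were grown from E12.5 mouse brains on PDL/Lam-coated dishes, split before overnight infection, and collected 6 days later with medium changes in between. The labels give neither the mouse strain nor whether replicates were grown from different embryos.

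Stathmins are small phosphoproteins that bind tubulin dimers, keep them out of the microtubule polymer and promote microtubule shortening, and phosphorylation weakens that binding. Stathmin itself, the product of Stmn1, is cytosolic and abundant in dividing cells as well as in neurons. The neural members Stmn2 (SCG10), Stmn3 (SCLIP) and Stmn4 (RB3) carry an added N-terminal extension, palmitoylated in the cell, that anchors them to Golgi and vesicle membranes and carries them into growing neurites. REST, a zinc finger protein, represses transcription at the RE1 element and holds many neuronal genes low in cells that are not neurons, and the Stmn2 gene was among those in which such an element was first described. The comparison asks how the 4 transcripts differ once REST is targeted.

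The upstream sequences at hand held an entry for Stmn3 alone, so only its sequence is shown and searched. The other members could not be searched for RE1. In the main limma fit, Stmn3 had the smallest unadjusted p of the family on both of its probe sets. RefSeq places the 250 bases before its start at chr2:181314501-181314750 of GRCm38.p6, on the minus strand, and they read, 5′ to 3′ with CG dinucleotides in capitals:
Stmn3 upstream: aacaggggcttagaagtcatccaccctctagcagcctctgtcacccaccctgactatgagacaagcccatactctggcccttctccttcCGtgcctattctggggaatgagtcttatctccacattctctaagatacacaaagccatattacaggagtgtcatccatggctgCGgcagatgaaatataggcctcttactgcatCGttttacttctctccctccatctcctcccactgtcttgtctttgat
The window held 3 CG dinucleotides, against a median of 6 over 32851 upstream windows of the same length, and its GC content was 48.8%, against a median of 52.4%. Both strands were searched for the cores of the left and right parts of RE1, CAGCACC and GGACAG, and for both joined in this order with any 2 bases between them. None of the 3 was in this window. The left core was in 5.73% of all windows, the right core in 18.7% and the joined form in 0.0335%. These letters being absent from 250 bases says nothing about REST binding elsewhere in the gene.

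The cultures held several cell types, and 1 array lay at the extreme of several cell type lists, most of all in its astrocyte genes. The highest signal of 27 bacterial control probe sets, 3.24 in log2 units, served as a background reference. All 12 measured progenitor markers, all 11 astrocyte markers and 10 of 11 oligodendrocyte markers had a mean above it. Sox2, a progenitor transcription factor, averaged 10.4 in the REST shRNA arrays and 10.8 in the control arrays, and Olig2, of the oligodendrocyte lineage, 10.2 in each group. Markers of microglia and endothelium lay mostly at background, with 3 of 9 and 1 of 7 having a mean above it. Over all probe sets REST shRNA array 2 correlated with the other arrays at 0.955 to 0.977, which does not set it apart from REST shRNA array 3, at 0.955 to 0.980, or control array 3, at 0.958 to 0.982. Gfap, an astrocyte filament, read 5.58 on REST shRNA array 2, against 11.1 and 11.7 in the other REST shRNA arrays and 8.85 to 10.7 in the control arrays. That array also had the lowest mean over the oligodendrocyte list, 7.93 against 8.36 to 9.61 on the other arrays. Its progenitor list mean was the lowest as well, 9.79 against 9.92 to 10.1, and its cycling cell list mean was the highest, 9.58. Results are therefore also given without REST shRNA array 2. The arrays numbered 3 in both groups had the lowest mean over 11 cycling cell genes, 6.18 with REST shRNA and 6.17 with control shRNA, where the other arrays spanned 7.73 to 9.58. The Gapdh 3′ minus 5′ signal, a sign of RNA quality, was 1.93 to 2.25 log2 units in the REST shRNA arrays and 1.72 to 2.87 in the control arrays, with the highest value in control array 3.

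Rest itself was lower where it was targeted. The brightest of 4 Rest probe sets read 8.63, 7.70 and 8.20 in REST shRNA arrays 1, 2 and 3, against 8.92, 8.75 and 8.90 in the control arrays. By replicate number it differed by -0.28, -1.05 and -0.70. Without REST shRNA array 2 it differed by -0.44 (unadjusted limma p of 0.0608). Probe sets 1425565_at and 1425566_at also differed least between the arrays numbered 1 and most between those numbered 2. Probe set 1425564_at went otherwise, at -0.98, -0.84 and -0.59. No REST shRNA array reached the lowest control array on any of the 4 probe sets, whose levels were 57.3% to 71.5% of control. In the limma fit over 45037 probe sets the unadjusted p of the 4 was 0.00175 to 0.0323, and each had an adjusted p of 1. At an unadjusted limma p under 0.05, 868 of the 45037 probe sets were lower. With 1 probe set per gene, Rest was represented by its brightest, whose groups did not overlap (unadjusted limma p of 0.0302). Of the 18193 genes in that fit, 1.07% were lower at an unadjusted p under 0.05. Groups without overlap in the lower direction were found for 2.65% of them.

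All 7 stathmin probe sets had a higher mean with REST shRNA, by little for Stmn1 and by more for the 3 neural members. Of all probe sets 52.6% had a higher mean. None of the 7 passed an adjusted p of 0.05 in limma, a threshold that 0% of the 45037 probe sets passed. At an unadjusted p under 0.05, 3 of the 7 were higher (both of Stmn3 and that of Stmn4), where 1.54% of all probe sets were. The same 3 were those whose groups did not overlap, with every REST shRNA array above every control array, which held for 4.35% of all probe sets. With replicate number added as a block, 5 of the 7 had an unadjusted p under 0.05, now including both probe sets of Stmn2, where 1.87% of all probe sets were higher at that p, and 0 passed the adjusted threshold. The median log2 difference of the 7 was 0.90, against 0.01 over all probe sets. Probe sets of one gene read the same transcript, so the 7 stand for 4 genes. The p-values reflect the spread among these 6 arrays, some of which may be technical.

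**Figure D1:**
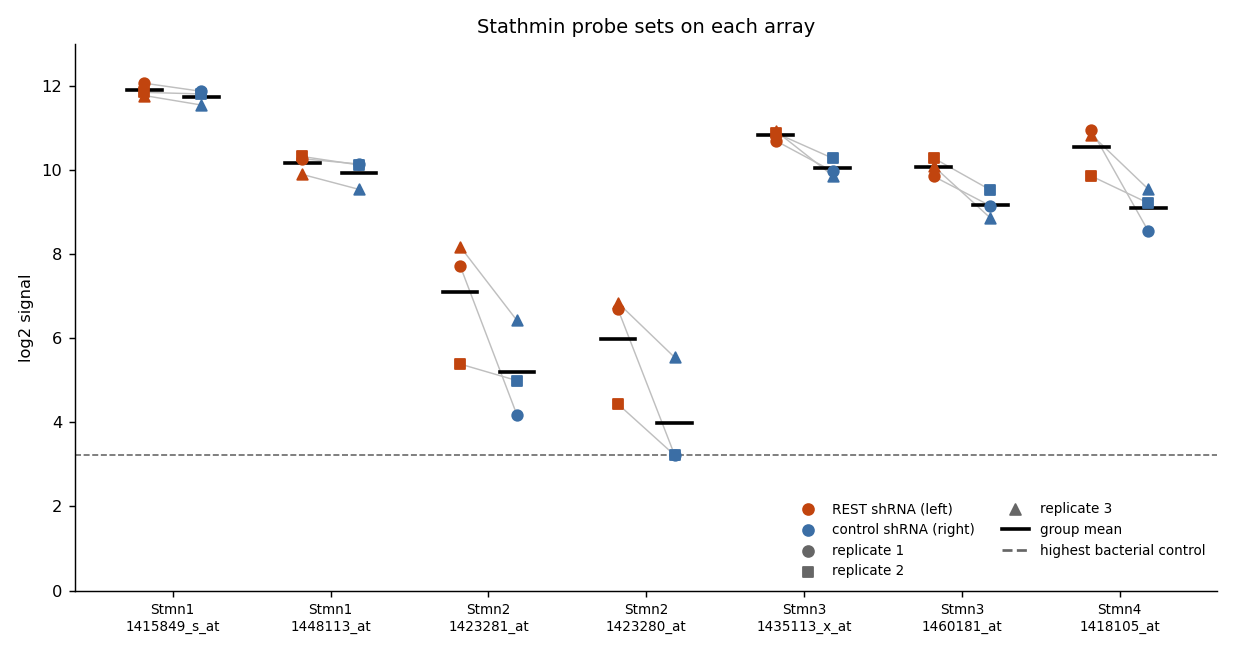
Log2 signal of the 7 stathmin probe sets on each of the 6 arrays, with REST shRNA left and control shRNA right, lines joining arrays of one replicate number and black bars for group means. The groups are apart for both Stmn3 probe sets and for Stmn4, and overlap for Stmn1 and Stmn2, whose dimmer probe set lies at the bacterial control line in control arrays 1 and 2.

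Stmn1, the general stathmin of dividing cells and neurons, had among the brightest signals of the array and the smallest difference of the family. Its brighter probe set, 1415849_s_at, read 12.07, 11.85 and 11.77 log2 units in REST shRNA arrays 1, 2 and 3, against 11.87, 11.81 and 11.55 in control arrays 1, 2 and 3. The groups overlapped, and the mean difference was 0.15 ± 0.17 (SE, log2, n = 3 per group; 95% CI -0.25 to 0.55). The unadjusted limma p was 0.399, and the exact permutation test gave 0.5. The second probe set, 1448113_at, read 10.27, 10.32 and 9.90 with REST shRNA, against 10.15, 10.12 and 9.54 with control shRNA. It also overlapped, with a difference of 0.23 ± 0.23 and an interval from -0.31 to 0.76. The upper bounds of these intervals correspond to 1.47-fold and 1.70-fold, so changes up to that size could not be told from none. The ID of the brighter probe set marks probes shared by several transcripts, so its signal may not be that of Stmn1 alone.

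Stmn1 was lowest on the arrays numbered 3 in each group, on both probe sets. Those are the arrays with the lowest cycling cell genes. Mki67, a marker of dividing cells, read 6.81 on REST shRNA array 3 and 7.75 on control array 3, against 9.26 to 10.8 on the other 4 arrays. The part of the cell cycle in the Stmn1 values was not tested. Over the 6 arrays Stmn1 correlated with the mean of the cycling cell list at 0.50, the fibroblast list at 0.46, the microglia list at 0.40, the endothelial list at 0.38 and the neuron list at 0.13, as a description of arrays that share their groups.

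Stmn2, whose protein SCG10 is carried to growth cones, showed the largest mean difference and by far the widest spread. Its brighter probe set, 1423281_at, read 7.73, 5.39 and 8.18 log2 units in REST shRNA arrays 1, 2 and 3, against 4.18, 4.99 and 6.43 in control arrays 1, 2 and 3. REST shRNA array 2 lay below control array 3, so the groups overlapped, although each REST shRNA array was above the control array of its own number. The mean was 7.10 ± 1.50 with REST shRNA and 5.20 ± 1.14 with control shRNA (SD, n = 3 each). The difference of 1.90 ± 0.84 (SE, log2), or 3.73-fold, had a 95% CI of -0.09 to 3.89 and an unadjusted limma p of 0.0583. The exact permutation test gave 0.2 for each Stmn2 probe set.

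The second probe set of Stmn2, 1423280_at, read 6.70, 4.44 and 6.85 with REST shRNA, against 3.22, 3.22 and 5.54 with control shRNA. Control arrays 1 and 2 were at the background reference of 3.24 on this probe set, where differences are understated. Its difference was 2.00 ± 0.85 (SE, log2), with a 95% CI of -0.01 to 4.01 and an unadjusted limma p of 0.0509. Both probe sets followed each other over the 6 arrays (r = 0.98). Of all 45037 probe sets these had the 7th and 10th highest differences, and 99.1% of probe sets had a smaller residual SD than either of them.

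The difference of Stmn2 varied between replicate numbers. Each number has a single array per group, so this cannot be told from spread between single arrays. On the brighter probe set it was 3.55 log2 units between the arrays numbered 1, 0.39 between those numbered 2 and 1.76 between those numbered 3. On the dimmer it was 3.48, 1.22 and 1.30. Without REST shRNA array 2 the brighter probe set differed by 2.75 (unadjusted limma p of 0.00401), and with both arrays numbered 1 left out by 1.08 (unadjusted p of 0.354). REST shRNA array 2 also had the lowest signal on the brightest Rest probe set, 7.70. Leaving that array out moved the Rest difference from -0.68 to -0.44. How the Stmn2 values relate to the Rest level of each array was not tested. Blocked on replicate number, the unadjusted p was 0.0144 for the brighter probe set and 0.00502 for the dimmer, with an adjusted p of 0.998 for both.

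**Figure D2:**
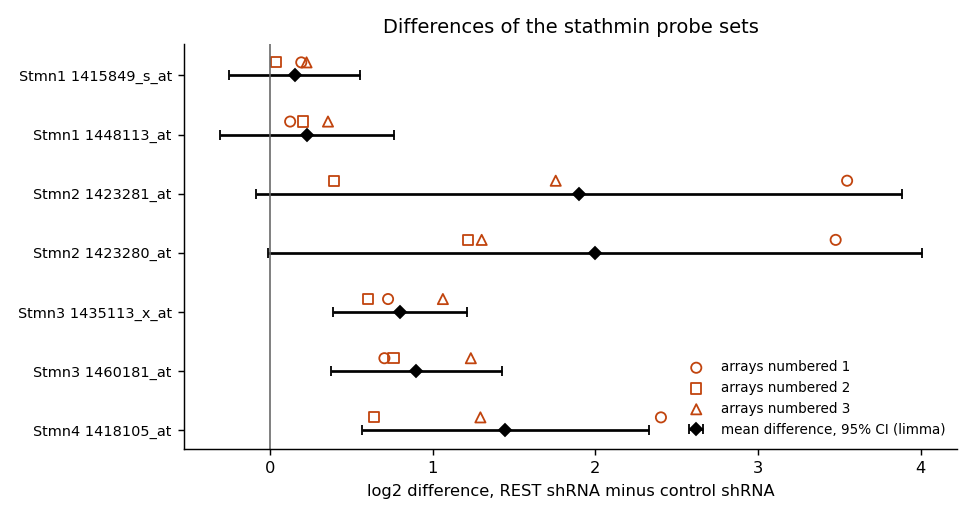
Log2 difference, REST shRNA minus control shRNA, for each stathmin probe set, with black diamonds for the mean and its 95% CI from limma and open symbols for arrays of the same replicate number. All open symbols lie above 0, where 12.2% of all probe sets were higher in all 3 same-numbered pairs. The intervals include 0 for Stmn1 and Stmn2 and exclude it for Stmn3 and Stmn4.

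Stmn3, the membrane-bound stathmin SCLIP, gave a smaller mean difference than Stmn2, with little spread between arrays. Its brighter probe set, 1435113_x_at, read 10.70, 10.88 and 10.93 log2 units in REST shRNA arrays 1, 2 and 3, against 9.97, 10.28 and 9.87 in control arrays 1, 2 and 3. The lowest REST shRNA array was above the highest control array. The mean was 10.84 ± 0.12 with REST shRNA and 10.04 ± 0.21 with control shRNA (SD, n = 3 each), 1.74-fold higher (log2 difference 0.80, 95% CI 0.38 to 1.21). Its unadjusted limma p of 0.00261 was the 71st smallest of 45037, and the adjusted p was 1. An exact two-sided permutation test gave 0.1, which is as low as 3 arrays against 3 can go.

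The second probe set of Stmn3, 1460181_at, read 9.85, 10.29 and 10.10 with REST shRNA, against 9.15, 9.53 and 8.86 with control shRNA. It was 1.86-fold higher (log2 difference 0.90, 95% CI 0.37 to 1.42; unadjusted limma p of 0.00497), again with no overlap. Between arrays of the same number the 2 probe sets differed by 0.60 to 1.06 and by 0.70 to 1.23, with the arrays numbered 3 furthest apart on both. Without REST shRNA array 2 the differences were 0.77 and 0.79. The ID of the brighter probe set marks probes that can match other transcripts, while that of the second does not, and both tracked each other over the 6 arrays (r = 0.98).

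Stmn4, which encodes the neural stathmin RB3, was measured by 1 probe set, 1418105_at. It read 10.96, 9.86 and 10.84 log2 units in REST shRNA arrays 1, 2 and 3, against 8.55, 9.22 and 9.55 in control arrays 1, 2 and 3. The groups did not overlap, although REST shRNA array 2 lay closer to the highest control array than to the other REST shRNA arrays. The mean was 10.55 ± 0.60 with REST shRNA and 9.11 ± 0.51 with control shRNA (SD, n = 3 each), 2.72-fold higher (log2 difference 1.45, 95% CI 0.56 to 2.33). The unadjusted limma p was 0.00618 and the adjusted p was 1, and the exact permutation test gave 0.1. By replicate number the difference was 2.40, 0.64 and 1.29. It was 1.79 without REST shRNA array 2, and 0.97 with both arrays numbered 1 left out, where the unadjusted p was 0.0646.

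Whether the members differed by unequal amounts was tested on the brightest probe set of each gene, as the within-array difference between 2 members compared between groups. The difference of Stmn3 exceeded that of Stmn1 by 0.64 log2 units and that of Stmn4 exceeded it by 1.29, each in all 3 replicate numbers and with no overlap between groups. The exact permutation p was 0.1 for both, the smallest possible, and 0.3 when adjusted over the 6 pairs of genes. The difference of Stmn2 exceeded that of Stmn1 by 1.75, also in all 3 replicate numbers (3.35, 0.36 and 1.53) but with overlapping groups (exact permutation p = 0.2). Among the 3 neural members the groups overlapped for every pair. Stmn4 and Stmn2 differed by -0.45 (exact permutation p = 0.7), Stmn3 and Stmn2 by -1.10 (p = 0.3, exact permutation), and Stmn4 and Stmn3 by 0.65 (p = 0.2, exact permutation). The difference of Stmn4 exceeded that of Stmn3 in all 3 replicate numbers (1.68, 0.04 and 0.23), while the other 2 of these pairs changed sign between numbers. The exact permutation test cannot go below 0.1 with 3 against 3 arrays, and a p that misses the threshold does not show that the neural members moved alike.

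The members also fell into patterns over the arrays. Stmn2 and Stmn4 followed each other closely, with r = 0.94 over the 6 arrays, both being low on REST shRNA array 2 relative to the other REST shRNA arrays. Stmn3 was not low on that array and correlated at 0.76 with Stmn4 and 0.55 with Stmn2. Stmn1 correlated at 0.08 with Stmn2, 0.31 with Stmn4 and 0.47 with Stmn3. These correlations include the group difference and are descriptions of 6 arrays.

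Set against level, the neural members stood at the edge of the probe sets of like signal. When the 45037 probe sets were ranked by mean signal and cut into 5 level groups of equal size, both Stmn1 probe sets, both of Stmn3 and that of Stmn4 were in the brightest 20%. In that level group the SD of the difference was 0.24 and 0.144% of probe sets differed by 1 or more upward. Of the probe sets in the brightest level group, 99.9% had a smaller difference than Stmn4, 99.7% and 99.8% a smaller one than the Stmn3 probe sets, and 79.5% and 88.2% a smaller one than those of Stmn1. The Stmn2 probe sets were in level groups 3 and 4, counted from the dimmest, where 0.855% and 0.600% of probe sets differed by 1 or more upward, and 99.96% and 99.94% of these groups had a smaller difference. Spread went otherwise: the residual SD of Stmn3 was ordinary for the brightest level group, with 23.6% and 53.6% of its probe sets below it, that of Stmn4 exceeded 89.3%, and those of Stmn2 exceeded 98.8% (dimmer) and 98.0% (brighter) of their level groups.

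**Figure D3:**
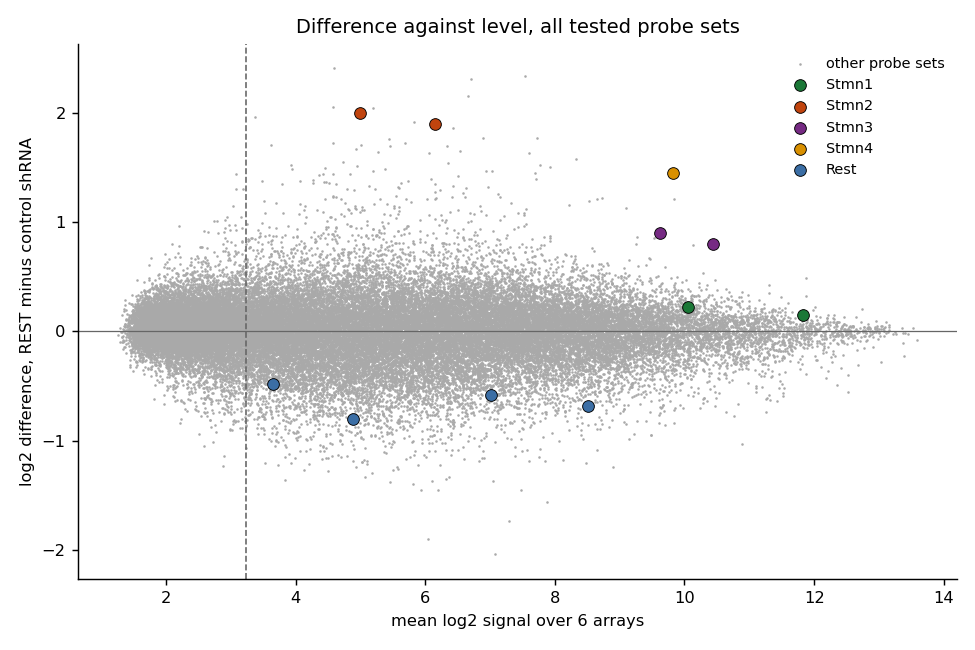
Log2 difference, REST shRNA minus control shRNA, against mean log2 signal over 6 arrays for the 45037 probe sets tested (grey), with the stathmin and Rest probe sets coloured and the background reference of 3.24 dashed. Stmn2, Stmn3 and Stmn4 lie along the upper edge at their signal levels, Stmn1 lies within the cloud, and all 4 Rest probe sets lie below 0.

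Many but not all other neuronal genes were higher in the same arrays. The mean over 17 measured neuron markers was 8.44, 8.29 and 8.84 log2 units in REST shRNA arrays 1, 2 and 3, against 7.73, 7.87 and 8.06 in control arrays 1, 2 and 3. The groups did not overlap, 13 of the 17 markers had a positive difference, as 57.2% of all genes did, and the median difference was 0.65, against 0.04 over all 18193 genes. At an unadjusted limma p under 0.05, 8 of the 17 were higher, against 1.78% of all genes, and 0 were lower. Dcx, Elavl4, Map2 and Ncam1 had negative differences, of -0.20, -0.21, -0.10 and -0.12, with overlapping groups. Mapt and Tubb3 were among the positive ones, at 0.14 and 0.44, also overlapping (unadjusted limma p of 0.747 and 0.356). By replicate number the list mean differed by 0.70, 0.41 and 0.77, where Stmn4 differed by 2.40, 0.64 and 1.29 and Stmn3 by 0.73, 0.60 and 1.06. In bulk samples more neurons, more RNA per neuron and more of these transcripts in other cells cannot be told apart. The part of each in the stathmin values was not tested.

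On REST shRNA array 2 single neuron markers went both ways, with 4 of the 17 at their lowest of the 6 arrays there and 3 at their highest. Tubb3, the neuronal beta-tubulin, read 8.79 there, against 10.4 and 10.5 on the other REST shRNA arrays and 9.33 to 9.54 on the control arrays. Dcx, a microtubule-associated protein of young neurons, read 8.51 there, below all other arrays, which spanned 9.64 to 10.5. The neurofilament genes Nefl and Nefm and the growth cone gene Gap43 were at their highest there. Nefl read 8.47, against 6.20 and 7.41 on the other REST shRNA arrays, Nefm 6.21, against 3.60 and 4.93, and Gap43 10.22, against 9.31 and 9.45. Stmn3 on the same array, at 10.88, was above every control array. Over the 6 arrays the neuron list mean correlated with Stmn4 at 0.93, Stmn2 at 0.90 and Stmn3 at 0.81. Other lists also gave high values: Stmn3 correlated with the microglia list, which lay near background, at 0.90, Stmn2 with the oligodendrocyte list at 0.81 and the endothelial list at 0.67, and Stmn4 with the microglia list at 0.69 and the oligodendrocyte list at 0.60. Negative values of like size were found for Stmn3 with the progenitor list, at -0.73, and for Stmn2 with the cycling cell list, at -0.68.

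No other cell type list had a mean that was higher in every REST shRNA array than in every control array. Of 12 progenitor markers 2 had a positive difference (median -0.23), and of 11 astrocyte markers 0 did (median -0.36). The astrocyte list mean was 8.24 to 9.87 in the REST shRNA arrays and 9.60 to 9.90 in the control arrays. Of 11 oligodendrocyte markers 8 were higher by mean, and the median difference was 0.04. Mobp, a myelin gene, averaged 8.61 with REST shRNA and 6.83 with control shRNA with overlapping groups (unadjusted limma p of 0.128). By replicate number Mobp differed by 2.31, 1.09 and 1.92 (unadjusted limma p of 0.000694 with the block, adjusted p of 0.784). Among 8 fibroblast markers 7 were positive (median 0.23), with list means of 3.76 to 4.34 with REST shRNA and 3.78 to 4.003 with control shRNA, near background. Fn1, which encodes fibronectin, was the exception, averaging 6.85 with REST shRNA and 7.91 with control shRNA (log2 difference -1.05, unadjusted limma p of 0.0443) with no overlap. Aif1, a microglial gene, differed by 1.02 with a mean of 3.43 in the REST shRNA arrays and 2.40 in the control arrays, about the background reference. The 11 cycling cell markers had a median of 0.04, with list means that differed by -0.74, 1.00 and 0.01 for replicate numbers 1, 2 and 3.

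**Figure D4:**
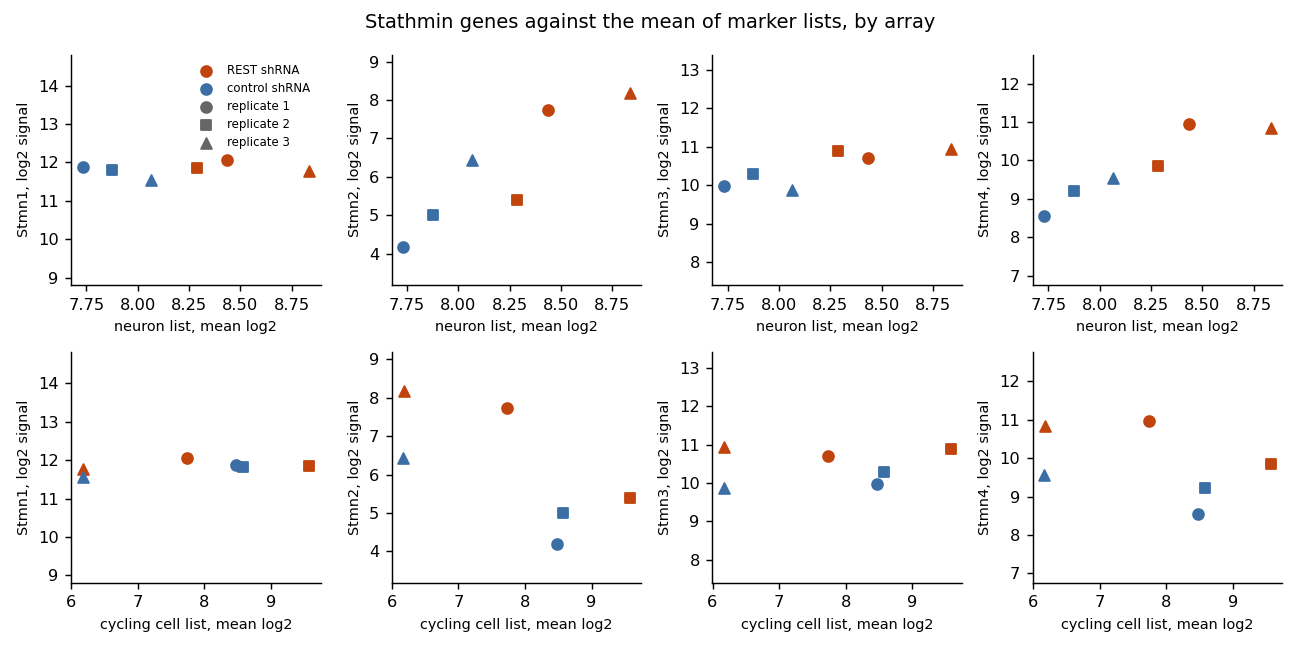
Log2 signal of the brightest probe set of each stathmin gene against the mean log2 signal of the neuron list (top) and the cycling cell list (bottom), 1 point per array, coloured by group and shaped by replicate number, with every vertical axis spanning the same number of log2 units. Stmn2 and Stmn4 are highest on REST shRNA arrays 1 and 3, where the neuron list is also highest.

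Genes that act on stathmins showed little difference as groups. Of 16 measured genes for kinases and a phosphatase subunit that set stathmin phosphorylation, 13 were higher by mean, as were 57.2% of all genes, the median difference was 0.05 and none passed an unadjusted limma p of 0.05 in either direction. The members with the smallest p were Mapk10, the neuronal JNK isoform, at 0.49 ± 0.29 (SE, log2; unadjusted limma p of 0.135), and Mapk14, a p38 kinase, at -0.18 ± 0.15. The mitotic stathmin kinases Cdk1, Aurkb and Plk1 differed by 0.01 ± 1.17, 0.29 ± 1.21 and 0.03 ± 0.92 (SE, log2). Their spread was too wide to tell changes of several fold in either direction from none. All 3 measured Golgi palmitoyltransferases, enzymes of the kind that attach palmitate to the neural stathmins, had overlapping groups. Zdhhc3 differed by 0.19 ± 0.24 and Zdhhc7 by 0.17 ± 0.23.

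Of 12 measured genes for other proteins that destabilise or sever microtubules, 7 were higher by mean, against 57.2% of all genes. The median difference was 0.05, and none had an unadjusted limma p under 0.05, where 1.78% of genes were higher and 1.07% lower. Spast, which encodes the severing enzyme spastin, read 9.41 ± 0.21 with REST shRNA and 9.78 ± 0.19 with control shRNA (SD, n = 3 each), with no overlap and an unadjusted limma p of 0.0854. Kif2a, a kinesin that depolymerises microtubule ends, read 9.69 ± 0.27 with REST shRNA and 9.30 ± 0.23 with control shRNA, also with no overlap and an unadjusted limma p of 0.104. Groups without overlap were found for 4.91% of all genes in the higher direction and 2.65% in the lower. Among REST and 9 measured corepressor genes Rest alone had an unadjusted p under 0.05, and the next smallest was that of Rcor3, a CoREST paralogue, at 0.26 ± 0.17 (SE, log2).

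The genes most like each member were taken as the 3 named genes with the highest correlation over the 6 arrays, among 13005 genes with a mean above background. For Stmn2 they were Hrk, a BH3-only cell death gene, Prrt1 and Lgals2, at r of 0.99 each. For Stmn4 they were Rab15, Mcpt8 and Myt1l, a zinc finger factor of neurons, at 0.98 each. Mcpt8, at 3.66 with REST shRNA and 3.38 with control shRNA, lay near the background reference of 3.24. So did Lgals2 in the control arrays, at 3.27, while it averaged 4.35 with REST shRNA. For Stmn3 they were Pigx at 0.99, and Sult4a1, a brain sulfotransferase, and Crmp1, a collapsin response mediator, at 0.98 each. For Stmn1 they were Lonp2, Cyth3 and Cdc26, a subunit of the anaphase-promoting complex, at 0.97 to 0.98. With 6 arrays the genes named are not alone at such values. Of the 13005 genes, 54 exceeded 0.95 for Stmn2, 27 for Stmn3, 23 for Stmn4 and 16 for Stmn1.

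Leaving out arrays moved Stmn2 most. Over the 6 fits that each left out 1 array, the log2 difference ranged from 1.36 to 2.75 for Stmn2, 1.17 to 1.79 for Stmn4, 0.71 to 0.92 for Stmn3 and 0.05 to 0.22 for Stmn1, each on its brightest probe set. The sign was positive in all of these fits. Stmn3 kept an unadjusted limma p under 0.05 in each of them, as did Stmn4, while Stmn2 was under it only without REST shRNA array 2 and without control array 3 (unadjusted p of 0.0267), where it differed by 2.51.

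**Figure D5:**
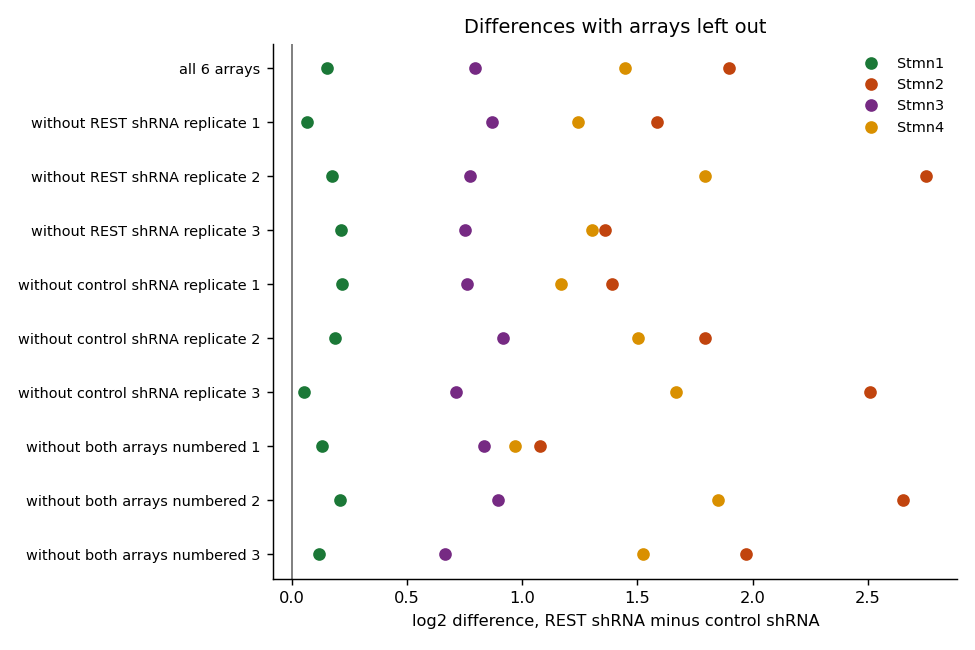
Log2 difference, REST shRNA minus control shRNA, of the brightest probe set of each stathmin gene with all 6 arrays, with each array left out and with both arrays of a replicate number left out. Stmn3 and Stmn1 keep to narrow ranges, while Stmn2 spans 1.08 to 2.75.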

How the data were processed

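The deposited table holds one log2 value per probe set and array. The log2 scale was inferred from the authors' values, which spanned 1.00 to 14.2. How they corrected background, summarised probes and normalized was not given in the sources used here. Every column matched 1 sample, and groups and replicate numbers came from the titles. Per the labels, amplified cDNA was labelled with biotin. Names came from the platform annotation, checked by gene number against RefSeq (GRCm38.p6, names only), with 34958 having 1 gene, 932 several and 9211 unlisted here. All 4 stathmin genes matched. The promoter table matched Stmn3. Stmn1, Stmn2 and Stmn4 were named only.

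After leaving out 64 array control probe sets, limma 3.58.1 in R 4.3.3 (lmFit, eBayes, group as the sole term, two-sided) was fitted to 45037 probe sets, with Benjamini-Hochberg adjustment over all. Gene lists used the brightest probe set of each of 18193 genes in a second fit. No dim probe sets were removed. The 3 arrays per group limit precision. A table with nearly one distribution per array gives differences relative to other genes, not per cell.

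Same-numbered arrays deviated together, with correlations of 0.117, 0.282 and 0.402 for numbers 1, 2 and 3. Differences are therefore also given by number and with the number as a block. The main limma fit and the permutation tests leave the numbers out, because the labels state no pairing. The titles and these correlations are the sole basis for pairing arrays by number. Control array 1 came closer to REST shRNA array 2, at 0.231, than to its own number. The code was tested on simulated data. Named genes were Rest, all members, the 2 genes of smallest p per pathway list, the 3 genes most like each member, and set markers per cell type. Cdk1, Aurkb, Plk1, Nefl, Nefm, Gap43, Mobp and Fn1 were added after their values were seen. Members, lists and tests were chosen with earlier results of these data known.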

Additional observations from a re-analysis of the deposited data

How the results depend on the processing

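In 19 alternatives no stathmin probe set and no probe set of the array passed the adjusted threshold in limma, and every stathmin and Rest probe set kept its sign where it was tested. The number of stathmin probe sets with an unadjusted p under 0.05, 3 in the fit reported, was 5 with the replicate number as a block, 5 with an intensity trend in the variance and 5 with array weights. It ranged from 2 to 5 when single arrays or both arrays of a number were left out, with 5 without REST shRNA array 2, without control array 3 and without both arrays numbered 2. Of all probe sets 1.54% were higher at that p in the fit reported, 1.87% with the block, 1.57% with the trend, 2.93% with array weights, 3.18% without REST shRNA array 2, 1.39% without control array 3 and 2.03% without both arrays numbered 2. The block changed no adjusted call. Array weights put the Stmn2 difference at 2.79, and REST shRNA array 2 had the lowest weight, 0.377. The causes were not tested. Over all probe sets the unadjusted counts were 692 higher and 868 lower, and 899 and 675 with each array centred on its median, which moved the median of all probe sets to 0.05. Leaving out 1 array leaves 2 in its group. Stmn1 1415849_s_at and Stmn3 1435113_x_at have no value without cross-matching IDs, and the second probe sets have none with 1 probe set per gene. Near the background reference, as for Stmn2 1423280_at in control arrays 1 and 2, signal limits what can be measured.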

Other observations

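Stmnd1, which encodes a further protein with a stathmin domain and is not among the 4 genes, has 1 probe set. It read 2.50, 2.49 and 2.76 log2 units in REST shRNA arrays 1, 2 and 3, against 2.45, 2.98 and 2.19 in control arrays 1, 2 and 3. All 6 values lay below the background reference of 3.24 and the groups overlapped.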
